A study of Rattus norvegicus with 6 samples.

Results

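Chromatin and DNA methylation regulators are the enzymes and complex subunits that write, read and remove methyl groups on DNA and methyl or acetyl groups on histones, or that slide nucleosomes. The 42 genes described here were chosen by symbol, from the 29468 gene symbols in the tables, and their RNA was compared between Schwann cell precursors (SCPs) and repair Schwann cells (RSCs) of the rat. SCPs are the first glia of the developing nerve, and RSCs are the form that adult Schwann cells take after nerve injury, when they clear myelin and guide regrowing axons. The study asked how the molecular profiles of these cells differ, since it had compared how well each promotes axon regeneration.

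Each group had 3 samples (n = 3). Both groups came from wild-type rats of the LEWIS strain and carried no allele or transgene in the labels. SCPs came from untreated embryos at embryonic day 14, from the sciatic nerves and brachial plexus of both sides. RSCs came from the sciatic nerve of rats 10 weeks old, from the segment distal to a cut made 1 week earlier. Both kinds of cells were freed from the nerve by enzymes and plated briefly so that adherent cells such as fibroblasts and macrophages would be left behind, so the RNA is that of an enriched suspension and not of a sorted cell type. In such bulk RNA, fewer cells of a type and less RNA per cell cannot be told apart. The groups also differ in age, injury, tissue and length of digestion, and these cannot be told apart in the comparison.

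Values are FPKM, read fragments divided by transcript length and by the mapped total of the sample, which allows levels to be compared between genes. They come from Cufflinks, which listed the same named reference transcripts in each sample and added unnamed transcripts that it assembled from that sample alone. The named value of a gene is the sum over its named transcripts, and it was the value fixed for the main comparison. The whole-gene value adds the unnamed transcripts that Cufflinks gave to the same gene. It was added after the data had been seen, because 14 of 252 named values of the members were listed at 0, in 10 members, while reads of the same gene sat in unnamed transcripts. No whole-gene value of a member was at 0. The median standard deviation between replicates, on the log2(FPKM + 1) scale, was 0.40 for the named values and 0.18 for the whole-gene values, and it was smaller for the whole-gene value in 37 of the 42 members. Across all genes, 26.1% to 31.9% of an SCP sample's FPKM and 18.6% to 23.4% of an RSC sample's were in unnamed transcripts. The absolute depth is unknown, and, set to 1.00 in the deepest sample, the relative depth ranged from 0.88 up among SCPs and from 0.79 to 0.84 among RSCs.

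Sox10, a transcription factor that marks the Schwann lineage, was present in every sample, at 179, 175 and 181 FPKM in SCPs and 149, 143 and 143 FPKM in RSCs. Ngfr, the low-affinity neurotrophin receptor, was at 173 to 233 FPKM in SCPs and 802.5 to 1068 FPKM in RSCs. S100b, a calcium-binding protein of later Schwann cells, was at 3.21 to 19.3 FPKM and 782 to 924 FPKM respectively. Of 9 tested Schwann markers 4 were higher in RSCs and 2 in SCPs by named values, with log2 fold changes of -1.77 to 6.37. By whole-gene values 7 and 2 of 10 were. Markers of other cells moved with the groups, and their part in the results below was not tested. For comparison, 18.1% of all tested genes were higher in RSCs and 22.4% in SCPs by named values, at an unadjusted p under 0.01. The whole-gene shares were 23.2% and 34.2%. By named values all 11 tested leukocyte markers were higher in RSCs, and their summed level was 16.2 to 48.2 FPKM in SCPs against 2856 to 3094 FPKM in RSCs, with Lyz2 at 1468 to 1770 FPKM in RSCs, Tyrobp at 7.87 to 16 FPKM in SCPs, and Cd68 listed at 0 in 2 of 3 SCP samples. Of 8 fibroblast markers 7 were higher in RSCs (sums of 642 to 1026 FPKM against 5385 to 8067 FPKM). All 5 tested erythroid markers were higher in SCPs, with sums of 16729 to 74796 FPKM against 0 to 1.85 FPKM, and the embryonic globins Hbe1 and Hbz were listed at 0 in every RSC sample. Of 5 tested muscle markers 4 were higher in SCPs, Myog among them, and 1, Des, in RSCs. Of 6 tested neuron markers 2 were higher in SCPs, and 4 by whole-gene values. None of the 5 tested endothelial and mural markers passed by named values. By whole-gene values Rgs5, a marker of pericytes, was higher in RSCs, at 75.3 to 98.4 FPKM against 4.98 to 9.99 FPKM in SCPs (log2 fold change 3.51), and Pdgfrb, another, was higher in SCPs (log2 fold change -0.60). The named value of Rgs5 was listed at 0 in every RSC sample.

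DNA methylation is copied to new strands by Dnmt1, which Uhrf1 brings to hemimethylated sites, is set on new sites by Dnmt3a and Dnmt3b, and is oxidised by the Tet enzymes on the way to its removal. Polycomb repressive complex 2 (PRC2), with Ezh2 or Ezh1 as its enzyme, trimethylates lysine 27 of histone H3, and the Cbx proteins of Polycomb repressive complex 1 (PRC1) bind that mark. In Schwann cells PRC2 is known for holding a set of injury-response genes silent in the intact adult nerve.

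More of the regulators were higher in SCPs than in RSCs. With named values, 39 members reached the mean of 1 FPKM needed for the test, and Dnmt3b, Tet1 and Hdac9 did not. At an unadjusted p under 0.01 in limma, 19 members were higher in SCPs and 3, Ezh1, Cbx7 and Hdac5, in RSCs. Below, calls and passing refer to this unadjusted threshold, while the limma p-values printed are the adjusted ones. Over all 13003 genes tested, 40.5% passed, 22.4% higher in SCPs and 18.1% in RSCs, against 48.7% and 7.69% of the tested members. The median log2 fold change, RSC minus SCP, was -1.12 over the tested members and -0.17 over all genes. All 3 SCP samples lay above all 3 RSC samples in 28 tested members, and below them in 3, while 33.7% and 24.9% of all genes did so. On the log2(FPKM + 1) scale, 7 members passed and were also more than 4-fold higher in SCPs (3.78% of all genes), Dnmt3a, Uhrf1, Ezh2, Cbx2, Kdm1a, Kdm5b and Chd7, and none in RSCs (7.81% of all genes). Adding 1 before the logarithm understates the change of genes at low FPKM.

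With whole-gene values all 42 members were tested, and 33 were higher in SCPs and 3, Cbx7, Ring1 and Hdac9, in RSCs. The background rose too, to 57.4% of 14018 genes, 34.2% higher in SCPs and 23.2% in RSCs. Cbx7 was the only member called in RSCs with both kinds of value, and 18 members were called in SCPs with both. The 6 members that did not pass with whole-gene values were Ezh1, Bmi1, Kdm3a, Kdm6b, Hdac5 and Sirt1. All 3 SCP samples lay above all 3 RSC samples in 35 members (43.6% of all genes), and the reverse held in 5 (28.8% of all genes). The median over the members was -0.97, against -0.24 over all genes. Fewer members than by named values passed and were more than 4-fold higher in SCPs on the log2(FPKM + 1) scale. They were 2 of the 42, Dnmt3a and Cbx2 (4.58% of all genes), and in RSCs 1 was, Cbx7 (8.57% of all genes). Scaling the samples by the median of ratios moved the all-gene median to -0.01, and then 31 members were higher in SCPs and 5, Ezh1 and Hdac5 added, in RSCs. Over all 14018 genes, 3542 were then higher in SCPs and 4043 in RSCs. By named values that scaling left 16 members higher in SCPs and 3 in RSCs, against 2207 and 2757 of all 13003 genes. It raised the RSC share of all calls from 44.6% to 55.5%.

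**Figure D1:**
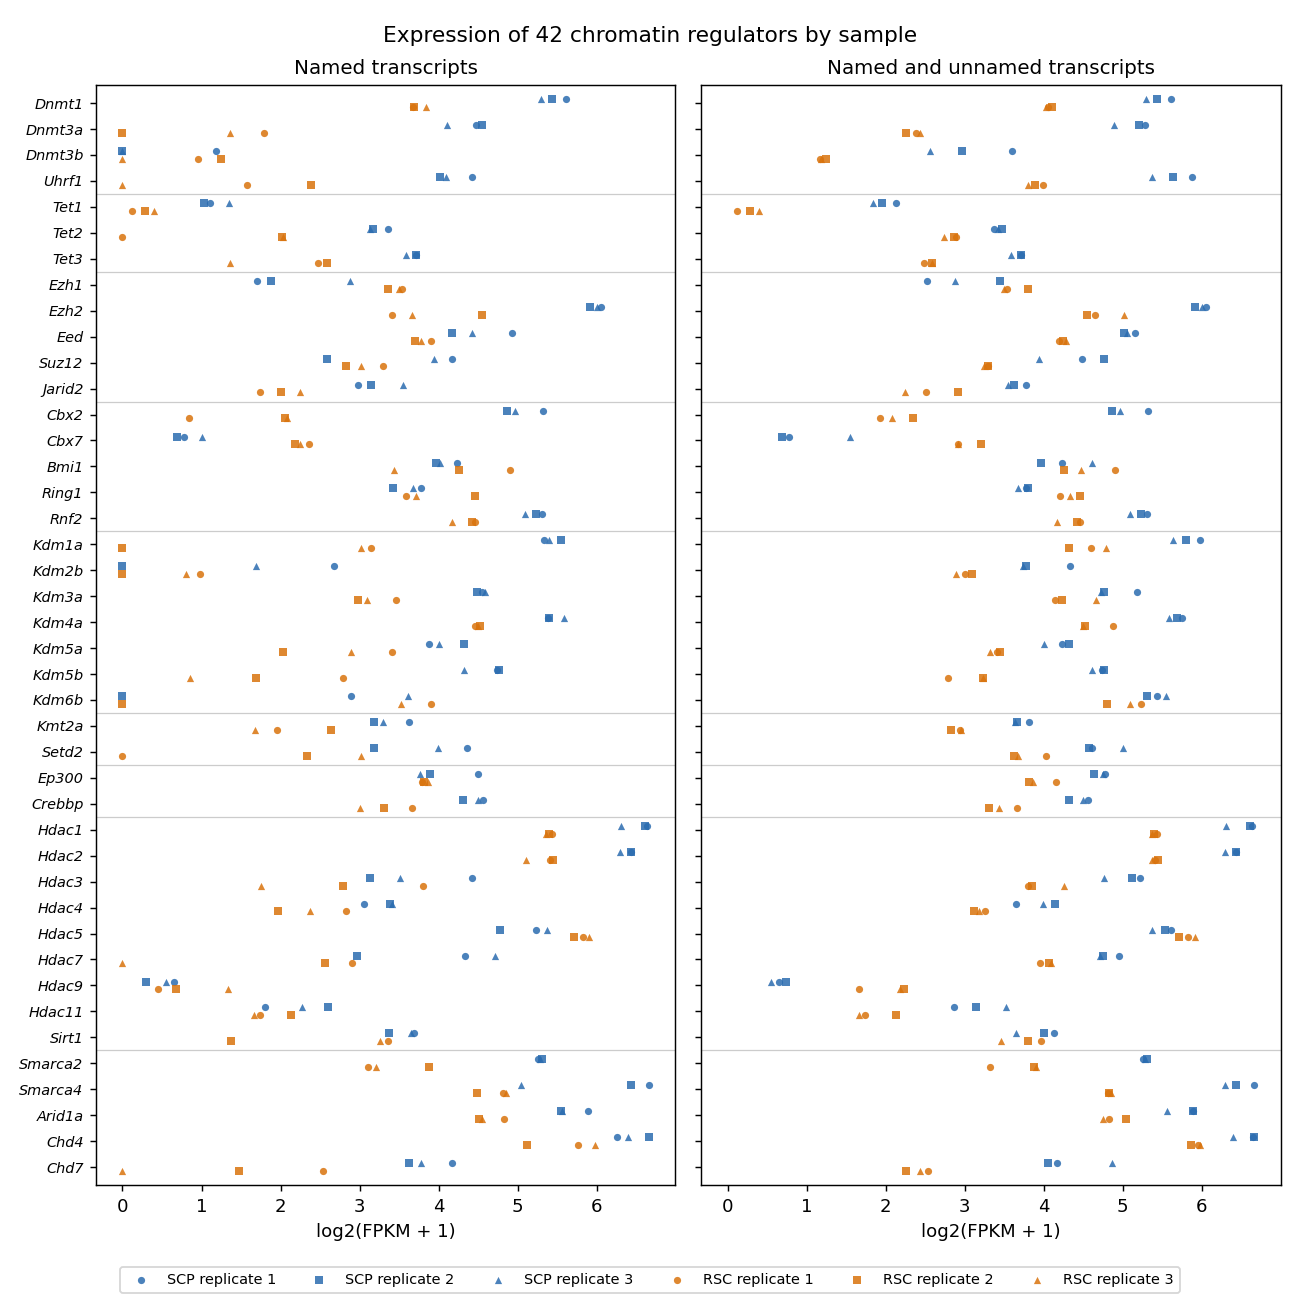
Level of each of the 42 regulators in each sample, as log2(FPKM + 1) on the horizontal axis, for SCPs (blue) and RSCs (orange), with 1 symbol per replicate and named values on the left and whole-gene values on the right. On the left 14 values sit at 0, and on the right none does and the replicates of a group lie closer together.

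Genes whose products are needed during DNA replication often carry sites for E2F factors, which drive entry into S phase, close to their start. Promoters from RefSeq (GRCr8 assembly, 250 bases before to 50 bases after the start) were found for 36 of the 42 members and searched on both strands for the E2F-type words TTTCCCGC, TTTCGCGC, TTTGCCGC and TTTGGCGC. A word was found in 6 members (16.7%), against 2.37% of 27457 promoters and 4.96% of the CpG-rich ones, those with an observed to expected CpG ratio above 0.6. Of the 36 member promoters 33 were CpG-rich (91.7%, against 37.8% of all). A match is a description of the letters and not a bound site. The windows are shown because they include the maintenance methylation genes Dnmt1 and Uhrf1 and the PRC2 genes Ezh2 and Suz12, and the capitals mark the word or its reverse complement.
Uhrf1, upstream word: ccgctaagttcGCGGGAAActcgcgcggtc
Uhrf1, downstream word: cccgagtcgggTTTCGCGCgccctggcgtc
Dnmt1: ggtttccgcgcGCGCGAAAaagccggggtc
Ezh2: gggctgctgcgTTTGGCGCtcggtccggtc
Suz12: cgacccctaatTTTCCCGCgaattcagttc
Kdm1a: gcggaggtgctcggTTTCGCGCggaccgtg
Arid1a: tccctccctccTTTCCCGCcccctccccct

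The Uhrf1 windows lie on the plus strand at chr9:1222982-1223011 and chr9:1223076-1223105 of GRCr8, with their words beginning 193 and 99 bases before the start. The Suz12 window lies on the plus strand at chr10:65464759-65464788, and its word begins 199 bases before the start. The other windows lie on the minus strand. They are chr8:27762798-27762827 for Dnmt1, chr4:77687156-77687185 for Ezh2, chr5:154121726-154121755 for Kdm1a and chr5:151265423-151265452 for Arid1a. In Arid1a the word begins 55 bases before the start, and in Ezh2, Dnmt1 and Kdm1a it begins at base 10, 26 and 35 of the transcript. All 6 of these genes were higher in SCPs by their whole-gene values, as were 33 of the 42 members (78.6%). With named values Suz12 did not pass the test. Of 28 listed cell cycle genes 26 were tested by named values, and 19 were higher in SCPs (73.1%, against 22.4% of all genes). By whole-gene values 23 of 27 were (85.2%, against 34.2%). The named sums were 972 to 1239 FPKM in SCPs and 398 to 433 FPKM in RSCs. Pcna, the most abundant of the list, was at 103 to 166 FPKM in SCPs and 69.2 to 80.5 FPKM in RSCs, and passed. Its whole-gene difference of -0.25 did not pass (limma, adjusted p = 0.132). Next were Rrm1, which makes deoxynucleotides (93.0 to 113 FPKM against 36.5 to 43 FPKM), and Birc5, a mitotic kinase subunit (75.6 to 85.7 FPKM against 22.6 to 23.7 FPKM). E2f1 and Rrm2 passed by neither value. The part of cell division in the members' levels was not tested.

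All members of the DNA methylation group that could be tested were higher in SCPs, against 22.4% of all genes by named and 34.2% by whole-gene values. Dnmt1, the maintenance methyltransferase, was at 47.8, 42.3 and 38.4 FPKM in SCPs and 11.7, 11.9 and 13.3 FPKM in RSCs by named transcripts, a log2 fold change of -1.71 ± 0.12 (SE; limma, adjusted p = 0.000177). Its whole-gene values in RSCs were 15.6, 16.2 and 15.3 FPKM, so that SCPs were 2.73-fold higher. The groups did not overlap in either case. Uhrf1, its partner, was at 20.5, 15.2 and 16.1 FPKM in SCPs and 1.97, 4.23 and 0 FPKM in RSCs by its single named transcript (log2 fold change -2.86 ± 0.60, limma, adjusted p = 0.0103). Its whole-gene values were 58.0, 48.7 and 40.4 FPKM in SCPs and 14.9, 13.8 and 13 FPKM in RSCs (log2 fold change -1.74 ± 0.14, limma, adjusted p = 8.79e-05). Unnamed transcripts thus held most of the Uhrf1 FPKM in both groups, 64.7% in SCPs and 85.1% in RSCs. The named call was lost without SCP replicate 1, 2 or 3 or RSC replicate 1, at adjusted p-values of 0.0305 to 0.0397, and the whole-gene call was kept without any one sample.

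Dnmt3a, a de novo methyltransferase, was at 21.3, 22.5 and 16.2 FPKM in SCPs and 2.47, 0 and 1.57 FPKM in RSCs (log2 fold change -3.33 ± 0.48, limma, adjusted p = 0.00247), and by whole-gene values at 38.1, 36.0 and 28.7 FPKM against 4.24, 3.79 and 4.41 FPKM, an 8.27-fold difference of means. The gene lies on chromosome 6 of rn6 from base 28235695 to 28346052 and has 4 named transcripts, which begin at sites 88.0 kb apart. Transcripts, named and unnamed, that begin before the midpoint between the first and last named starts were counted as upstream, and the others as downstream. An unnamed transcript so placed need not begin at a named start. Upstream transcripts were at 12.4, 13.5 and 15.3 FPKM in SCPs and 3.43, 3.79 and 3.26 FPKM in RSCs. Downstream transcripts were at 25.7, 22.5 and 13.4 FPKM in SCPs and 0.811, 0 and 1.15 FPKM in RSCs. Unnamed transcripts held all the upstream FPKM of SCP replicates 1 and 2 and all the downstream FPKM of RSC replicates 1 and 3. Downstream transcripts thus held 67.4%, 62.5% and 46.7% of the gene's FPKM in SCPs and 19.1%, 0% and 26.1% in RSCs. No SCP share overlapped an RSC share. Which transcript a fragment shared by both was given to is decided by Cufflinks, and this split by start was not tested.

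**Figure D2:**
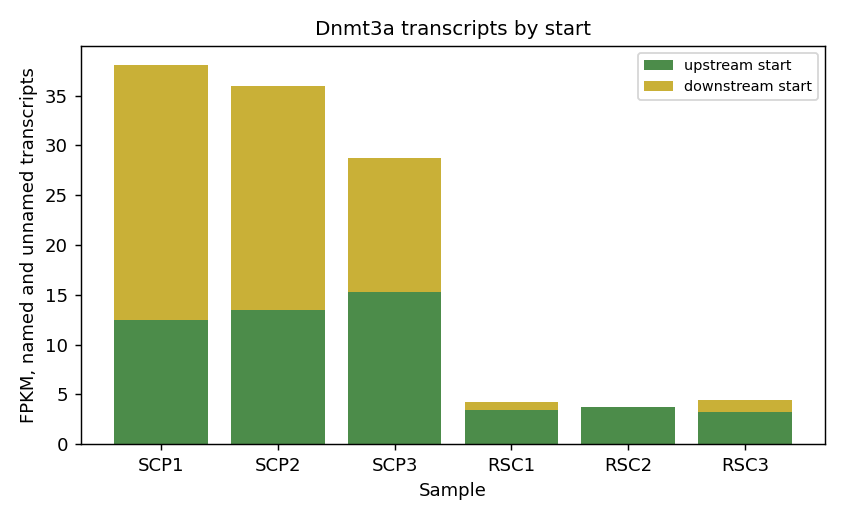
Dnmt3a FPKM in each sample, named and unnamed transcripts together, stacked by the side on which the transcript begins of the midpoint between the first and last named starts. Upstream transcripts (green) held 12.4 to 15.3 FPKM in SCPs and 3.26 to 3.79 FPKM in RSCs. Downstream transcripts (yellow) held 13.4 to 25.7 FPKM in SCPs and at most 1.15 FPKM in RSCs.

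Dnmt3b, the other de novo enzyme, was below the filter by its 13 named transcripts, with 1.27, 0 and 0 FPKM in SCPs and 0.944, 1.37 and 0 FPKM in RSCs. Its whole-gene values were 11.2, 6.80 and 4.90 FPKM in SCPs and 1.25, 1.37 and 1.27 FPKM in RSCs (log2 fold change -1.84 ± 0.27, limma, adjusted p = 0.00106). Unnamed transcripts held 94.5% of its SCP level and 40.5% of its RSC level. Of the Tet dioxygenases, Tet3 was higher in SCPs by both values, at 12.1, 12.2 and 11 FPKM against whole-gene values of 4.58, 5.01 and 5 FPKM in RSCs (log2 fold change -1.12 ± 0.11, limma, adjusted p = 0.000187). Tet2 was at 9.31, 10.1 and 9.71 FPKM in SCPs and 6.43, 6.27 and 5.68 FPKM in RSCs by whole-gene values, a 1.58-fold difference that lost its call under median-of-ratios scaling. Its named values, with RSC replicate 1 listed at 0, did not pass (log2 fold change -1.87 ± 0.58, limma, adjusted p = 0.041). Tet1 was the lowest member in RSCs, at 0.0902, 0.219 and 0.319 FPKM, against whole-gene values of 3.40, 2.87 and 2.59 FPKM in SCPs. The named Tet3 call, at a log2 fold change of -1.53, was lost without SCP replicate 1, 2 or 3 (limma, adjusted p = 0.0399 to 0.0476).

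The PRC2 enzyme genes moved in opposite directions by named values. Ezh2, the enzyme of dividing cells, was at 65.6, 59.2 and 63.0 FPKM in SCPs and 9.65, 22.3 and 11.7 FPKM in RSCs (log2 fold change -2.12 ± 0.30, limma, adjusted p = 0.00216). Its whole-gene values in RSCs were 24.2, 22.3 and 31.4 FPKM, and the difference was then 2.41-fold. Ezh1, the less active enzyme found in non-dividing cells, was at 2.25, 2.68 and 6.35 FPKM in SCPs and 10.6, 9.25 and 10.3 FPKM in RSCs (log2 fold change 1.31 ± 0.34, limma, adjusted p = 0.0209). By whole-gene values it was at 4.76, 9.93 and 6.35 FPKM against 10.6, 13 and 10.3 FPKM, which did not overlap but did not pass (log2 fold change 0.66 ± 0.24, limma, adjusted p = 0.0494). The whole-gene difference passed without SCP replicate 2 (log2 fold change 0.91, limma, adjusted p = 0.00781), and the named one was lost without any one sample other than SCP replicate 3 (limma, adjusted p = 0.0554 to 0.0667). Under median-of-ratios scaling the whole-gene difference of Ezh1 was 0.90 and passed.

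The other PRC2 subunits were higher in SCPs by whole-gene values. Eed, which reads the mark PRC2 makes, was at 34.5, 31.2 and 32.1 FPKM in SCPs and 17.4, 17.9 and 18.4 FPKM in RSCs (1.82-fold). Suz12, the scaffold of the complex, was at 21.4, 26.2 and 14.3 FPKM and 8.83, 8.83 and 8.50 FPKM (2.37-fold). Neither passed by named values, with log2 fold changes of -0.71 ± 0.21 (limma, adjusted p = 0.0356) and -0.52 ± 0.44 (limma, adjusted p = 0.374). Both passed when SCP replicate 2 was left out, at -0.88 and -1.01. Jarid2, a cofactor that recruits PRC2, was higher in SCPs by named values (6.91, 7.87 and 10.7 FPKM against 2.35, 3.01 and 3.73 FPKM) and by whole-gene values (2.32-fold).

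In PRC1 the members split. Cbx2, a reader of the Polycomb mark that is prominent in development, was at 39.0, 28.1 and 30.4 FPKM in SCPs and 0.799, 3.17 and 3.24 FPKM in RSCs by named values (log2 fold change -3.39 ± 0.37, limma, adjusted p = 0.000876), and its whole-gene value was 9.64-fold higher in SCPs. Cbx7, another reader of the same mark, went the other way. It was at 0.717, 0.615 and 1.02 FPKM in SCPs and 4.15, 3.52 and 3.76 FPKM in RSCs by named values (log2 fold change 1.44 ± 0.21, limma, adjusted p = 0.00237), and at 6.56, 8.21 and 6.54 FPKM in RSCs by whole-gene values, 6.53-fold higher than in SCPs. On the log2(FPKM + 1) scale its whole-gene difference was the only one of a member that passed and was more than 4-fold higher in RSCs, as in 8.57% of all genes.

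The catalytic core of PRC1 differed less. Rnf2, its main ubiquitin ligase, was at 38.6, 36.5 and 33.2 FPKM in SCPs and 21.0, 20.5 and 17.0 FPKM in RSCs, with no unnamed transcripts (1.85-fold). Ring1, its paralogue, was at 12.7, 13 and 11.7 FPKM in SCPs and 17.5, 21.0 and 19.2 FPKM in RSCs by whole-gene values (log2 fold change 0.58 ± 0.11, limma, adjusted p = 0.00301), and did not pass by named values (log2 fold change 0.30 ± 0.26, limma, adjusted p = 0.396). Bmi1, which activates the ligase, ranged from 14.6 to 23.4 FPKM in SCPs and from 18.2 to 29.0 FPKM in RSCs, and the groups overlapped. Its named difference changed sign, from 0.13 to -0.22, without RSC replicate 1.

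**Figure D3:**
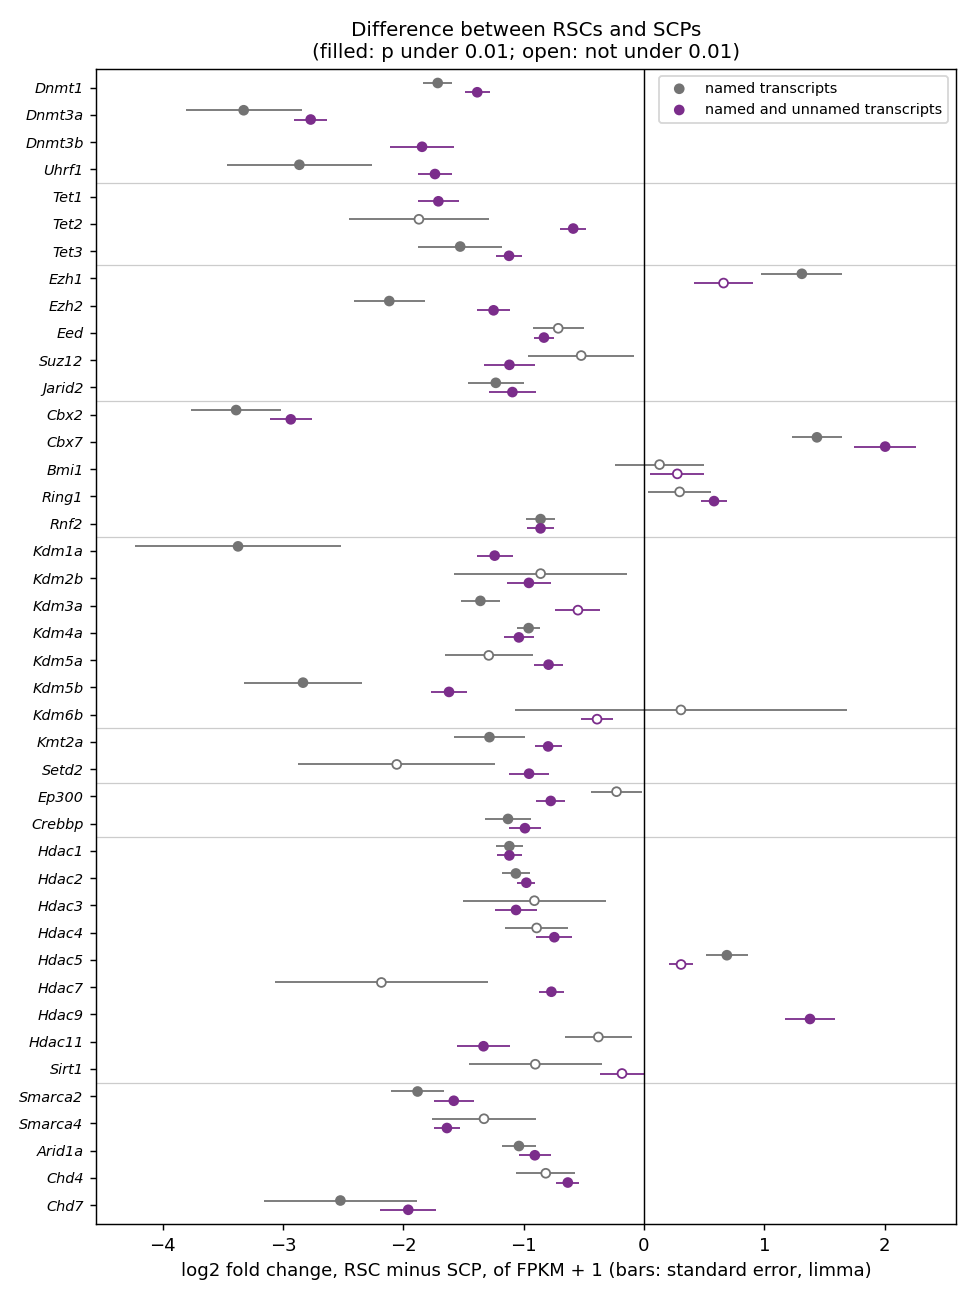
Log2 fold change of FPKM + 1, RSC minus SCP, of each regulator, with its standard error from limma, by named transcripts (grey) and with the unnamed transcripts of the gene added (purple). Filled points passed an unadjusted p under 0.01, and by whole-gene values 33 members passed to the left of 0 and 3 to the right.

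Of the 7 histone demethylases, 4 were higher in SCPs by named values and 5 by whole-gene values, and none was higher in RSCs. These shares, 57.1% and 71.4%, stand beside 22.4% and 34.2% of all genes. Kdm1a (LSD1), which removes methyl groups from lysine 4 of histone H3, was at 39.5, 45.8 and 41.0 FPKM in SCPs and 7.84, 0 and 7.10 FPKM in RSCs by its single named transcript (log2 fold change -3.37 ± 0.85, limma, adjusted p = 0.0202). Unnamed transcripts held 78.3% of its FPKM in RSCs, and its whole-gene values were 62.2, 55.0 and 48.6 FPKM against 23.2, 19.0 and 26.6 FPKM, 2.41-fold. The named call was lost without any SCP replicate or without RSC replicate 3 (limma, adjusted p = 0.0306 to 0.063). Kdm5b, which removes the trimethyl mark of active promoters, was at 25.7, 26.3 and 23.5 FPKM in SCPs and 5.93, 8.41 and 8.42 FPKM in RSCs by whole-gene values (log2 fold change -1.62 ± 0.15, limma, adjusted p = 0.000138). Its paralogue Kdm5a was at 17.8, 19.0 and 15.0 FPKM and 9.61, 9.92 and 8.99 FPKM (1.82-fold), which passed by whole-gene values but not by named values.

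Kdm4a, a demethylase of lysines 9 and 36 of histone H3, was higher in SCPs by named (1.99-fold) and whole-gene values (2.09-fold). Kdm2b, which brings a variant PRC1 to CpG islands, had 82.9% of its SCP and 91.8% of its RSC level in unnamed transcripts. Its whole-gene values were 19.2, 12.7 and 12.4 FPKM in SCPs and 7, 7.53 and 6.45 FPKM in RSCs (limma, adjusted p = 0.00357), and its named values, listed at 0 in replicate 2 of each group, did not pass. Kdm3a, a lysine 9 demethylase, was called in SCPs by named values (log2 fold change -1.36 ± 0.16, limma, adjusted p = 0.00115) but not by whole-gene values, which were 35.4, 26.2 and 25.5 FPKM against 16.6, 17.8 and 24.3 FPKM. It passed there too without RSC replicate 3 (log2 fold change -0.71, limma, adjusted p = 0.0165). Kdm6b, which removes the mark that PRC2 sets, was at 42.3, 38.7 and 46.0 FPKM in SCPs and 36.6, 27.0 and 33.1 FPKM in RSCs by whole-gene values. The groups did not overlap, the difference did not pass (log2 fold change -0.39 ± 0.13, limma, adjusted p = 0.0365), and the named values, with a 0 in each group, had the opposite sign (0.31 ± 1.38).

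The histone methyltransferases Kmt2a and Setd2 were both higher in SCPs by whole-gene values. Kmt2a (MLL1), which methylates lysine 4, was at 13.1, 11.7 and 11.4 FPKM in SCPs and 6.67, 6.12 and 6.73 FPKM in RSCs (1.85-fold). Its named difference also passed, at -1.28 ± 0.30 (limma, adjusted p = 0.0144), but not without SCP replicate 1, 2 or 3 or RSC replicate 1 or 3 (limma, adjusted p = 0.034 to 0.0507). Setd2, which trimethylates lysine 36 along transcribed genes, was at 23.4, 22.9 and 31.2 FPKM and 15.4, 11.4 and 11.7 FPKM by whole-gene values (2.01-fold), while its named value in RSC replicate 1 was listed at 0 and its named difference did not pass (limma, adjusted p = 0.0871). The acetyltransferases Crebbp and Ep300 are paralogous coactivators. Crebbp was higher in SCPs by both values, at 22.6, 18.9 and 21.6 FPKM against 11.7, 8.91 and 9.81 FPKM by whole-gene values (2.08-fold). Ep300 was at 26.3, 24 and 25.9 FPKM and 16.9, 13.1 and 13.5 FPKM (1.75-fold), and its named values overlapped.

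Of 8 histone deacetylases tested by named values, 2 were higher in SCPs (25%, against 22.4% of all genes) and 1 in RSCs (12.5%, against 18.1%). By whole-gene values 6 and 1 of 9 were (66.7% and 11.1%, against 34.2% and 23.2% of all genes). Hdac1, Hdac2 and Hdac3, nuclear enzymes of class I, were higher in SCPs by whole-gene values. Hdac1 was at 98.6, 96.5 and 78.0 FPKM in SCPs and 42.2, 41.2 and 40.2 FPKM in RSCs, with no unnamed transcripts (log2 fold change -1.12 ± 0.11, limma, adjusted p = 0.000576 by named values). Hdac2 was at 85.4, 85.5 and 77.5 FPKM and 41.7, 42.7 and 40.3 FPKM by whole-gene values (1.99-fold), and also passed by named values. Hdac3 was 2.16-fold higher in SCPs by whole-gene values, with 26.2 to 36.4 FPKM against 12.9 to 18.1 FPKM, and overlapped by named values.

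The class IIa deacetylases, which shuttle between nucleus and cytoplasm, did not share a direction. Hdac4 was at 11.6, 16.7 and 14.9 FPKM in SCPs and 8.58, 7.70 and 8.06 FPKM in RSCs by whole-gene values (1.78-fold), a call lost under median-of-ratios scaling. Hdac7 was at 30.02, 26.0 and 25.3 FPKM and 14.4, 15.8 and 16.1 FPKM (1.75-fold). Neither passed by named values. Hdac9 was higher in RSCs, at 2.18, 3.71 and 3.52 FPKM against 0.569, 0.671 and 0.465 FPKM in SCPs (5.52-fold by whole-gene values, limma, adjusted p = 0.00113), and was below the filter by named values. Hdac5 was higher in RSCs by named values, at 55.8, 51.5 and 59.1 FPKM against 36.6, 26.4 and 40.6 FPKM (log2 fold change 0.69 ± 0.17, limma, adjusted p = 0.0192). By whole-gene values its SCP levels were 47.8, 45.5 and 40.6 FPKM, and the difference of 0.31 ± 0.10 did not pass (limma, adjusted p = 0.0269), although it did under median-of-ratios scaling, at 0.57. The named call of Hdac5 was lost without SCP replicate 1 or any RSC replicate (limma, adjusted p = 0.0405 to 0.0644).

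Hdac11, the single class IV enzyme, was at 6.29, 7.84 and 10.5 FPKM in SCPs and 2.35, 3.37 and 2.18 FPKM in RSCs by whole-gene values (3.12-fold), and overlapped by named values. Sirt1, an NAD-dependent deacetylase, was at 16.5, 15.0 and 11.5 FPKM and 14.7, 13 and 9.97 FPKM by whole-gene values. Its groups overlapped, and the sign of its difference turned under median-of-ratios scaling, from -0.18 to 0.06.

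The nucleosome remodelling genes were all higher in SCPs by whole-gene values, against 34.2% of all genes. Smarca4 (BRG1), an ATPase of the SWI/SNF complexes, was at 100.5, 85.8 and 77.7 FPKM in SCPs and 27.2, 27.3 and 27.8 FPKM in RSCs by whole-gene values (log2 fold change -1.64 ± 0.11, limma, adjusted p = 3.33e-05). By named values SCP replicate 3 was at 31.9 FPKM, and the difference of -1.33 ± 0.43 did not pass (limma, adjusted p = 0.0483) unless that sample was left out (-1.83, limma, adjusted p = 0.0013). Smarca2 (BRM), the alternative ATPase, was at 37.2, 38.6 and 38.0 FPKM and 9.01, 13.7 and 13.9 FPKM by whole-gene values, 3.10-fold, and passed by named values too.

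Arid1a, a subunit of one form of SWI/SNF, was higher in SCPs by named (2.1-fold) and whole-gene values (1.91-fold). Chd4, the ATPase of the NuRD complex, was the highest of the 42 members in both groups by whole-gene values, at 99.1, 100.4 and 82.9 FPKM in SCPs and 60.8, 57.5 and 62.2 FPKM in RSCs (1.56-fold). It did not pass by named values (limma, adjusted p = 0.0359). Chd7, a remodeller required in the neural crest and for myelination, was at 17.0, 15.7 and 28.2 FPKM in SCPs and 4.78, 3.77 and 4.42 FPKM in RSCs by whole-gene values (4.70-fold, log2 fold change -1.96 ± 0.23, limma, adjusted p = 0.000409). Its named difference of -2.52 passed, but not without any SCP replicate or without RSC replicate 2 (limma, adjusted p = 0.051 to 0.067).

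The FPKM of related genes were also set against each other within each sample. The ratios given are of FPKM, while differences and tests are of the log2 ratio of FPKM + 1, which weighs low values less. Of 7 pairs compared, 5 did not overlap between the groups on the log2(FPKM + 1) scale by either kind of value, but some of these did without the added 1. How often the ratios of other gene pairs separate was not counted. Among single genes, SCPs lay wholly above RSCs in 33.7% by named and 43.6% by whole-gene values, and wholly below in 24.9% and 28.8%. With 3 samples against 3 the smallest two-sided p of an exact permutation test is 0.10, or 0.14 after Benjamini-Hochberg adjustment over the 7 pairs, so no pair could pass a threshold of 0.05. The ratio of Ezh2 to Ezh1 was 29.2, 22.1 and 9.92 in SCPs and 0.908, 2.42 and 1.13 in RSCs by named values, a difference in log2(FPKM + 1) ratio of -3.43 (exact permutation p = 0.10). By whole-gene values it was 13.8, 5.96 and 9.92 in SCPs and 2.28, 1.72 and 3.06 in RSCs, a difference of -1.91 (exact permutation p = 0.10). Ezh2 thus exceeded Ezh1 in every sample by whole-gene values, by a larger factor in each SCP sample than in any RSC sample.

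The ratio of Cbx2 to Cbx7 crossed 1. It was 54.4, 45.6 and 15.7 in SCPs and 0.426, 0.497 and 0.495 in RSCs by whole-gene values (difference -4.94, exact permutation p = 0.10), and -4.83 by named values. The ratio of Dnmt3b to Dnmt3a was 0.293, 0.189 and 0.17 in SCPs and 0.294, 0.362 and 0.288 in RSCs by whole-gene values (difference 0.93, exact permutation p = 0.10), and without the added 1 SCP replicate 1 lay within the RSC range. Hdac9 was at 0.0490, 0.0400 and 0.0313 of the Hdac4 level in SCPs and 0.254, 0.482 and 0.437 of it in RSCs by whole-gene values (difference 2.12, exact permutation p = 0.10). By named values that ratio was 0.0778 in SCP replicate 1 and 0.0598 in RSC replicate 1, so the groups overlapped without the added 1. Tet1 against Tet2 did not overlap by either value but changed sign, from 0.97 by named values to -1.12 by whole-gene values. Without the added 1 the named ratio was 0.125 to 0.201 in SCPs and 0.0716 and 0.103 in RSC replicates 2 and 3, the order of the whole-gene values, with Tet2 listed at 0 in RSC replicate 1. Smarca4 against Smarca2 (0.55 by named and -0.06 by whole-gene values) and Hdac2 against Hdac3 (-0.15 and 0.09) overlapped.

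**Figure D4:**
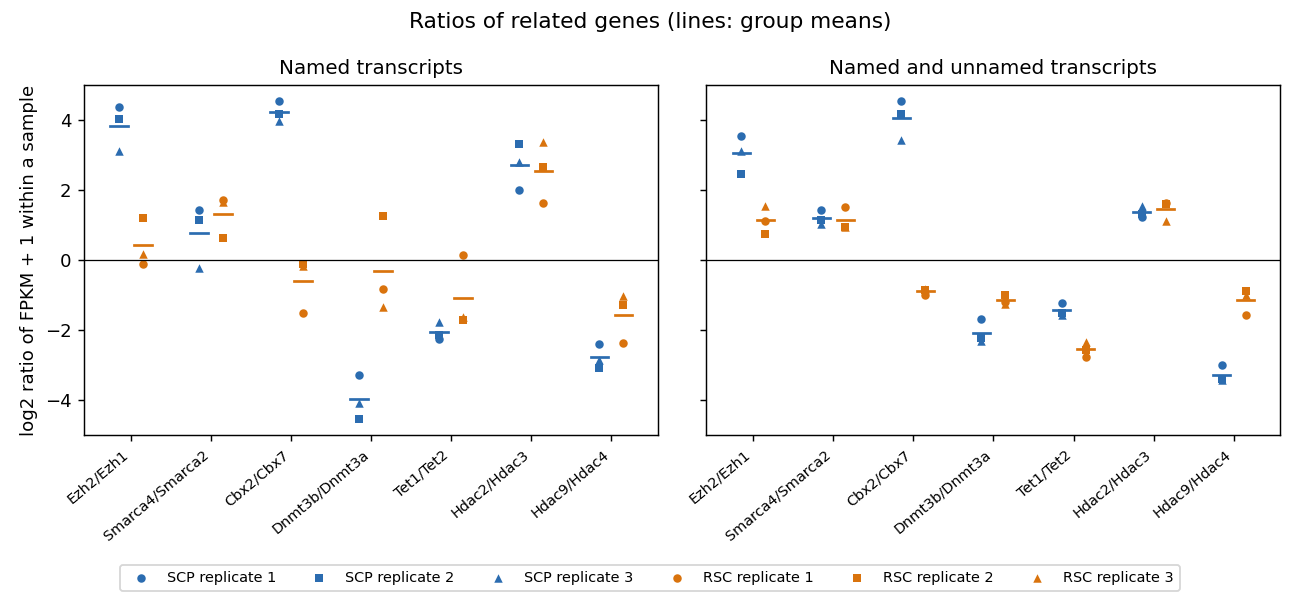
Log2 ratio of FPKM + 1 of 7 pairs of related genes within each sample, for SCPs (blue) and RSCs (orange), with lines at the group means and named values on the left and whole-gene values on the right. The Cbx2 to Cbx7 ratio lies above 0 in every SCP sample and below 0 in every RSC sample in both panels.

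Other genes of the same machinery were taken from lists of 157 symbols, of which 149 were in the tables and 137 were tested by named values. Of these 71 were higher in SCPs and 5 in RSCs, with a median log2 fold change of -0.81, and by whole-gene values 96 and 8 of 144. The shares higher in SCPs, 51.8% and 66.7%, can be read against the 22.4% and 34.2% of all genes given above. Those higher in RSCs, 3.65% and 5.56%, stand beside 18.1% and 23.2% of all genes. All 5 of the genes higher in RSCs by named values belong to the lists described next.

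Among 13 tested genes of DNA methylation and its readers, 6 were higher in SCPs (46.2%) and 2 in RSCs (15.4%). Of all genes 22.4% and 18.1% were. By whole-gene values 10 and 2 of 14 were (71.4% and 14.3%, against 34.2% and 23.2% of all genes). Tdg, the glycosylase that removes oxidised methylcytosine, was at 64.9, 57.5 and 42.6 FPKM in SCPs and 9.82, 13.8 and 5.75 FPKM in RSCs (log2 fold change -2.43 ± 0.32, limma, adjusted p = 0.0017), and Uhrf2, the paralogue of Uhrf1, also was higher in SCPs (log2 fold change -2.50, and -1.13 by whole-gene values). The readers Mbd2 (17.3, 11.5 and 15.5 FPKM against 22.8, 30.7 and 28.2 FPKM) and Zbtb4 (3.68, 3.38 and 4.03 FPKM against 10.9, 20.7 and 23.5 FPKM) were higher in RSCs. Among 6 PRC2 partners, Rbbp4 (147, 137 and 122 FPKM against 60.7, 59.1 and 57.1 FPKM) and Mtf2 were 2 of 3 higher in SCPs. The 3 in SCPs were 50% and the 1 in RSCs 16.7% of the 6, by named and by whole-gene values. Phf1, like Mtf2 a Polycomb-like protein, was higher in RSCs, at 16.8, 13.5 and 13.9 FPKM against 3.59, 4.19 and 0 FPKM (log2 fold change 2.44, limma, adjusted p = 0.0239). Its whole-gene difference was 1.39.

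Of 20 PRC1 partners 10 were higher in SCPs and none in RSCs by named values, with the largest differences in Pcgf2 (74.1, 57.7 and 51.4 FPKM against 11.7, 15.6 and 12.4 FPKM) and Bcor (log2 fold change -2.08, and -1.49 by whole-gene values). By whole-gene values 12 were higher in SCPs and 2 in RSCs (60% and 10%, against 34.2% and 23.2% of all genes). Further histone demethylases and their partners numbered 13 tested, 5 of them higher in SCPs (38.5%, against 22.4% of all genes) and none in RSCs. By whole-gene values 6 of 14 were higher in SCPs (42.9%, against 34.2% of all genes) and none in RSCs. The 5 were led by Rcor2, a partner of Kdm1a, at 67.7, 46.7 and 50.8 FPKM against 3.44, 3.12 and 4.19 FPKM (log2 fold change -3.60 ± 0.18, limma, adjusted p = 5.88e-05), and Kdm8 (log2 fold change -1.09). Of 28 further methyltransferase genes 16 were higher in SCPs (57.1%) and none in RSCs by named values, and 18 (64.3%) and 2 (7.14%) by whole-gene values. Ehmt1, a lysine 9 methyltransferase, was at -2.21 (-1.59 by whole-gene values), and Suv420h2, a lysine 20 methyltransferase, at -1.71 (-0.90 by whole-gene values). The 2 higher in RSCs were Setd7 (0.75) and Smyd2 (0.50).

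Of 21 tested histone acetylation genes 7 were higher in SCPs (33.3%, against 22.4% of all genes) and 2 in RSCs (9.52%, against 18.1%). By whole-gene values 13 and 1 of 22 were (59.1% and 4.55%, against 34.2% and 23.2% of all genes). Sirt2, a mainly cytoplasmic deacetylase, was at 65.9, 68.1 and 75.7 FPKM in SCPs and 136, 128 and 158 FPKM in RSCs (log2 fold change 0.99 ± 0.11, limma, adjusted p = 0.000747), and Sin3b, a corepressor, differed by 0.38 by named values and by 0.13 by whole-gene values, which did not pass. Brd3, a reader of acetylated histones, was higher in SCPs (log2 fold change -1.76). The remodelling list had 24 of 36 genes higher in SCPs (66.7%) and none in RSCs, and 34 of 40 (85%) and none by whole-gene values. Smarcc1, a SWI/SNF core subunit, was at -2.14 and Mta1, a NuRD subunit, at -1.99 (-1.36 by whole-gene values).

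A last list held 8 genes that PRC2 is known to keep silent in Schwann cells until injury. Of 7 tested, 5 were higher in RSCs (71.4%) and 1 in SCPs (14.3%), by named and by whole-gene values. Of all genes, 18.1% and 22.4% were so by named values, and 23.2% and 34.2% by whole-gene values. Fgf5, a growth factor, was at 2.99, 1.06 and 0.604 FPKM in SCPs and 25.5, 28.4 and 34.0 FPKM in RSCs (log2 fold change 3.67 ± 0.36, limma, adjusted p = 0.000557), and its whole-gene difference was 4.92. Runx2, a transcription factor, was at 9.43, 7.95 and 4.10 FPKM and 35.6, 21.5 and 24.1 FPKM (log2 fold change 1.81 ± 0.33, limma, adjusted p = 0.00584). Igfbp2, an IGF-binding protein, went the other way, at 25.6, 19.3 and 41.9 FPKM in SCPs and 0.759, 1.39 and 1.47 FPKM in RSCs. Histone marks were not measured here, and whether the levels of PRC2 genes bear on these genes was not tested.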

How the data were processed

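RNA of 3 SCP and 3 RSC samples was sequenced by the authors as mRNA libraries with paired reads of 100 bases. According to the submitters' processing notes FastQC 0.11.2, TopHat2 2.1.0 and Cufflinks 2.2.1 were used with the rn6 genome. The deposited tables hold, for each transcript, the FPKM that Cufflinks computed and its confidence limits, which were not used. The read coverage deposited beside it gave the relative depth. The absolute depth is unknown, so no counting error or detection limit can be given, and no count test could be run. Left out of every table were 77 transcripts whose names had become dates.

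FPKM were summed by symbol over named transcripts. Differences are RSC minus SCP on log2(FPKM + 1) from limma 3.58.1 (R 4.3.3) with a variance trend, fitted to all genes that averaged 1 FPKM or more. The threshold, an unadjusted p under 0.01, takes its cut-off from the study, which does not say whether its p was adjusted and also set a cut-off on fold. P-values were adjusted by the Benjamini-Hochberg method across the whole table. The whole-gene value and its alternatives were added after the data had been seen, and unnamed transcripts were assembled in each sample separately. Overlapping genes and transcripts can exchange fragments, and how Cufflinks used strand is not given in the sources used here. Ratios were compared by two-sided exact permutation tests in scipy 1.17.1, and tables were handled with pandas 2.3.3 in Python 3.11.15. According to the study 3 sets of cells were made for each group, but whether each came from other litters or animals is not stated, so p-values measure only the spread between these sets.

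The members and lists were chosen with earlier results of these data known. Named genes were all members, the 2 genes of each further chromatin list with the largest difference in each direction that passed, and up to 3 of the most abundant genes of each other list. Not every gene that this rule picks is reported here. Cd68 was named after its values were seen. The fit was tested on simulated data for 13003 genes, and called 57% of genes changed by a log2 fold change of 1, 87% of those changed by 3 and 1.11% of unchanged genes. The simulated noise was normal, with each gene's own spread. Values listed at 0 while reads sat in unnamed transcripts were not simulated, so these rates need not hold for them. Alternatives were a pseudocount of 0.1, no filter or a mean of 5 FPKM, a replicate block, adjusted p, a fit with no variance trend, scaling by quantiles or the median of ratios, the highest transcript, unnamed transcripts added by overlap or by Cufflinks gene, zeros left out, and each sample left out. Of the symbols 7 were matched by an older name. Promoter sequences are RefSeq's, on GRCr8, and gene positions are on rn6.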

Additional observations from a re-analysis of the deposited data

How the results depend on the processing

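Over 39 members and 18 alternatives to the named-value fit, 601 of 699 results kept their direction and side of the threshold. The call was lost in 57 and gained in 35, and 6 changed sign. Of the 35 gained calls, 12 came with unnamed transcripts added by overlap and 14 with those of the same Cufflinks gene. Each of these settings also gave 1 of the sign changes. The sign changed in Bmi1 (-0.22 without RSC replicate 1, and up to 0.51 without another sample), Sirt1 (0.38 with unnamed transcripts added by overlap) and Kdm6b (-0.39 with those of the same Cufflinks gene added, and -0.78, -0.41 and -0.21 without SCP replicate 2, RSC replicate 1 or RSC replicate 3, and up to 1.55 without another). Direction was kept throughout by 36 members and the call too by 12. Members higher in SCPs, 19 in the main fit, numbered 14 with adjusted p and 15 with a pseudocount of 0.1. Adjusted p left 2153 of all genes higher in SCPs and 1952 in RSCs. Members higher in SCPs numbered 32 and 33 with unnamed transcripts added by overlap or by Cufflinks gene, and 14 to 20 with 1 sample left out. Members higher in RSCs numbered 1 with adjusted p or the highest transcript, and 1 to 3 with 1 sample left out (1 without SCP replicate 1 or any RSC replicate). By whole-gene values they were 5 under median-of-ratios scaling and 3 to 4 with 1 sample left out. Genes higher in SCPs over all tested numbered 4789 with the Cufflinks gene's transcripts added, against 2917. The further chromatin genes higher in RSCs, 5, became 3 without a variance trend, 2 with adjusted p, 8 with the Cufflinks gene's transcripts and 2 to 6 with 1 sample left out. The members' median was -0.91 under median-of-ratios scaling. The ratio of Smarca4 to Smarca2 was -0.177 and -0.0571, that of Tet1 to Tet2 -1.12 both times, with unnamed transcripts added by overlap or by gene. That of Hdac2 to Hdac3 was 0.0858 by gene and -0.56 to 0.31 with 1 sample left out. The cause of these changes was not tested.

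The replicate numbers did not pair the samples, since the correlations of same-numbered deviations were 0.04, -0.005 and 0.03, and only SCP replicates 1 and 3 correlated best with their own number. With the replicate number as a block, 17 members were higher in SCPs and 2 in RSCs by named values, 33 and 3 by whole-gene values, and 2 further chromatin genes in RSCs. The block gave 2253 genes higher in SCPs and 2022 in RSCs over all tested. With 3 samples a group and unknown depth, levels near 0 FPKM could not be given a detection limit.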
